A study of Mus musculus with 9 samples.

Results

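The genes described here are the DEAD and DEAH box RNA helicases of the mouse oocyte, relatives of MTR4, the helicase whose loss the study examined. They were chosen by a rule on the symbol, set with earlier results of these data known. The rule sets aside 4 symbols (Ddx4, Ddx6, Ddx58 and Dhx58). Of the 23235 gene symbols in the table, 50 others start with Ddx or Dhx followed by a digit. Of these, 35 belong to the Ddx series and 15 to the Dhx series. Total RNA was sequenced from MTR4-null and WT mouse oocytes of day 21, after nucleus and cytoplasm had been parted by micromanipulation, with 10 nuclei or cytoplasms in each sample. The labels list 2 libraries of MTR4-null nuclei, 3 of WT nuclei, 2 of MTR4-null cytoplasm and 2 of WT cytoplasm. How the null allele was made, which Cre or promoter drove it and how many animals gave oocytes are not given in the sources used here. The table holds 1 FPKM column for each of the 4 groups and none for single libraries, so the error of a value is unknown, no test could be run and no difference has a replicate check.

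RNA helicases of these series share a core of paired RecA-like domains that binds ATP and RNA. They are named for a short stretch in that core, the motif II or Walker B box, which in the DEAD series ends in aspartate and in the DEAH series in histidine. DEAD box proteins mostly pry short duplexes apart locally, whereas DEAH box proteins move along single-stranded RNA and pull on duplexes or proteins. MTR4 belongs to the related Ski2-like group, whose box also ends in histidine, and feeds nuclear RNA to the exosome. In growing oocytes, which store mRNA for later use, splicing, ribosome assembly, export and translation all involve helicases of these series.

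The box that gives the series their names was read from the coding sequence of each gene in the GENCODE M21 annotation of GRCm38. A DEAD type box ends in the aspartate codon GAC or GAT, and a DEAH type box in the histidine codon CAC or CAT. Of the 35 Ddx genes, 32 had a box ending in GAC or GAT and 2, Ddx11 and Ddx60, one ending in CAC or CAT. Of the 15 Dhx genes, 14 had a box ending in CAC or CAT. Ddx26b and Dhx32 gave no match. The stretches below come from the members that stood furthest apart between genotypes or had high levels, and from Mtr4 with Dhx36 and Dhx9, which were chosen because their box matches that of Mtr4. Capitals mark the 12 bases of the box, and each stretch is the coding strand of 1 exon, cut where the exon ends.
Ddx47, chr6:135015881-135015928, + strand, exon 5: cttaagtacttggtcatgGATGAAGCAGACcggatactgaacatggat
Ddx54, chr5:120619828-120619859, + strand, exon 7: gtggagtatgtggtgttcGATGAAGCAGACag
Ddx28, chr8:106010540-106010587, - strand, exon 1: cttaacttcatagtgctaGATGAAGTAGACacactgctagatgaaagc
Ddx3x, chrX:13289395-13289437, + strand, exon 11: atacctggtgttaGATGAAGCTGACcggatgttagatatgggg
Ddx39b, chr17:35247072-35247119, + strand, exon 4: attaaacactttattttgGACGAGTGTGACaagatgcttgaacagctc
Ddx11, chr17:66138156-66138203, + strand, exon 10: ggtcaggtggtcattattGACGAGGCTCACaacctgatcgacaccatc
Dhx57, chr17:80267515-80267561, - strand, exon 9: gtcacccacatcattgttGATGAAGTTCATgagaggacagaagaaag
Dhx40, chr11:86800969-86801016, - strand, exon 4: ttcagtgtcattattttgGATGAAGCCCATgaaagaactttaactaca
Dhx36, chr3:62493836-62493883, - strand, exon 8: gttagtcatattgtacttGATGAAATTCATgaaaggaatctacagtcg
Dhx9, chr1:153468874-153468918, - strand, exon 14: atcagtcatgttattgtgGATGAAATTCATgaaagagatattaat
Mtr4 (annotated as Mtrex), chr13:112913100-112913145, - strand, exon 7: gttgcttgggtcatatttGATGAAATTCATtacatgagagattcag
Mtr4, Dhx36 and Dhx9 have the same 12 bases, GATGAAATTCAT. Ddx47 and Ddx54 share theirs, GATGAAGCAGAC, with Ddx31, Ddx43 and Ddx46. Ddx11, despite its symbol, carries the histidine codon: it encodes a DNA helicase of the iron-sulphur type.

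The transcript of Mtr4 itself, listed as Skiv2l2, had 2.91 FPKM in MTR4-null nuclei against 16.2 FPKM in WT nuclei, and 2.51 FPKM in MTR4-null cytoplasm against 21.6 FPKM in WT cytoplasm. It was thus lower in both columns labelled MTR4-null. The deleted stretch of the gene is unknown here, so the remaining level may come from outside it. All 16 oocyte markers, among them the zona pellucida genes and Gdf9, reached 1 FPKM in every column, with summed levels of 16831 FPKM in MTR4-null nuclei, 12921 FPKM in WT nuclei, 9959 FPKM in MTR4-null cytoplasm and 16047 FPKM in WT cytoplasm. Granulosa cells surround the oocyte. Of 16 markers of these cells, the 15 that reached 1 FPKM in at least 1 column summed to 61.0 FPKM in MTR4-null nuclei, 86.5 FPKM in WT nuclei, 48.2 FPKM in MTR4-null cytoplasm and 64.6 FPKM in WT cytoplasm. Of these markers 12 reached 1 FPKM in MTR4-null nuclei, 9 in WT nuclei and 11 in the cytoplasm of either genotype. Amh, a defining one, was listed at 0 in WT nuclei, but Inha had 21.4 FPKM, Cyp11a1 21.3 FPKM and Nr5a2 17.0 FPKM there. In pooled samples, fewer cells of a type and less RNA per cell cannot be told apart. FPKM is scaled to transcript length and to the fragments of each column, so it allows levels of different genes to be set side by side but gives no amount per oocyte.

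At least 10 FPKM was reached by 39 of the 50 members (78.0%) in MTR4-null nuclei, 33 (66.0%) in WT nuclei, 24 (48.0%) in MTR4-null cytoplasm and 32 (64.0%) in WT cytoplasm, against 24.7% (MTR4-null cytoplasm) to 31.5% (MTR4-null nuclei) of all symbols. Summed over the members, the level was 1450 FPKM in MTR4-null nuclei, 1196 FPKM in WT nuclei, 906 FPKM in MTR4-null cytoplasm and 1275 FPKM in WT cytoplasm. The Ddx genes made up 1153 FPKM of this sum in MTR4-null nuclei, 944 FPKM in WT nuclei, 736 FPKM in MTR4-null cytoplasm and 1039 FPKM in WT cytoplasm. The Dhx genes made up 297 FPKM in MTR4-null nuclei, 253 FPKM in WT nuclei, 170 FPKM in MTR4-null cytoplasm and 236 FPKM in WT cytoplasm. As deposited, the MTR4-null nucleus had the highest sum in both series and the MTR4-null cytoplasm the lowest. This order turned with scaling: divided by the size factors of the median log ratio, the sums over all members were 1223 FPKM in MTR4-null nuclei, 1169.9 FPKM in WT nuclei, 1199 FPKM in MTR4-null cytoplasm and 1133 FPKM in WT cytoplasm.

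Ddx3x, which encodes a helicase that helps structured mRNAs through translation initiation, had the highest level of all members in every column: 150 FPKM in MTR4-null nuclei, 171 FPKM in WT nuclei, 104 FPKM in MTR4-null cytoplasm and 206 FPKM in WT cytoplasm. It made up between 10.4% (MTR4-null nuclei) and 16.2% (WT cytoplasm) of the summed level. In WT nuclei it was followed by Ddx19a, a helicase that strips proteins from mRNA at the nuclear pore, at 114 FPKM, by Ddx5, a cofactor of transcription and splicing, at 83.8 FPKM, by Ddx11 at 58.3 FPKM and by Ddx39b, a helicase of splicing and export, at 50.2 FPKM. Ddx11 and Ddx39b were closer to each other than any of the other neighbours in this order, and without replicates no gap in it can be set against its error. Dhx genes spread over a narrower range: the highest in WT nuclei was Dhx8 at 35.9 FPKM and the lowest Dhx37 at 5.08 FPKM. The 5 highest members held 35.2% to 42.7% of the summed level across the columns.

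At the other end, 2 members failed the filter of at least 1 FPKM in at least 1 column, and 48 passed. Ddx3y, the Y-linked copy of Ddx3x, was listed at 0 in all 4 columns. Ddx26b, which encodes a relative of an Integrator subunit rather than a helicase, had 0.145 FPKM in MTR4-null nuclei, 0 in WT nuclei, 0.764 FPKM in MTR4-null cytoplasm and 0.00484 FPKM in WT cytoplasm. Of the members that passed, Ddx43 did so through the MTR4-null nucleus alone and Ddx60 through the WT columns alone, so both had to differ between the genotypes.

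**Figure D1:**
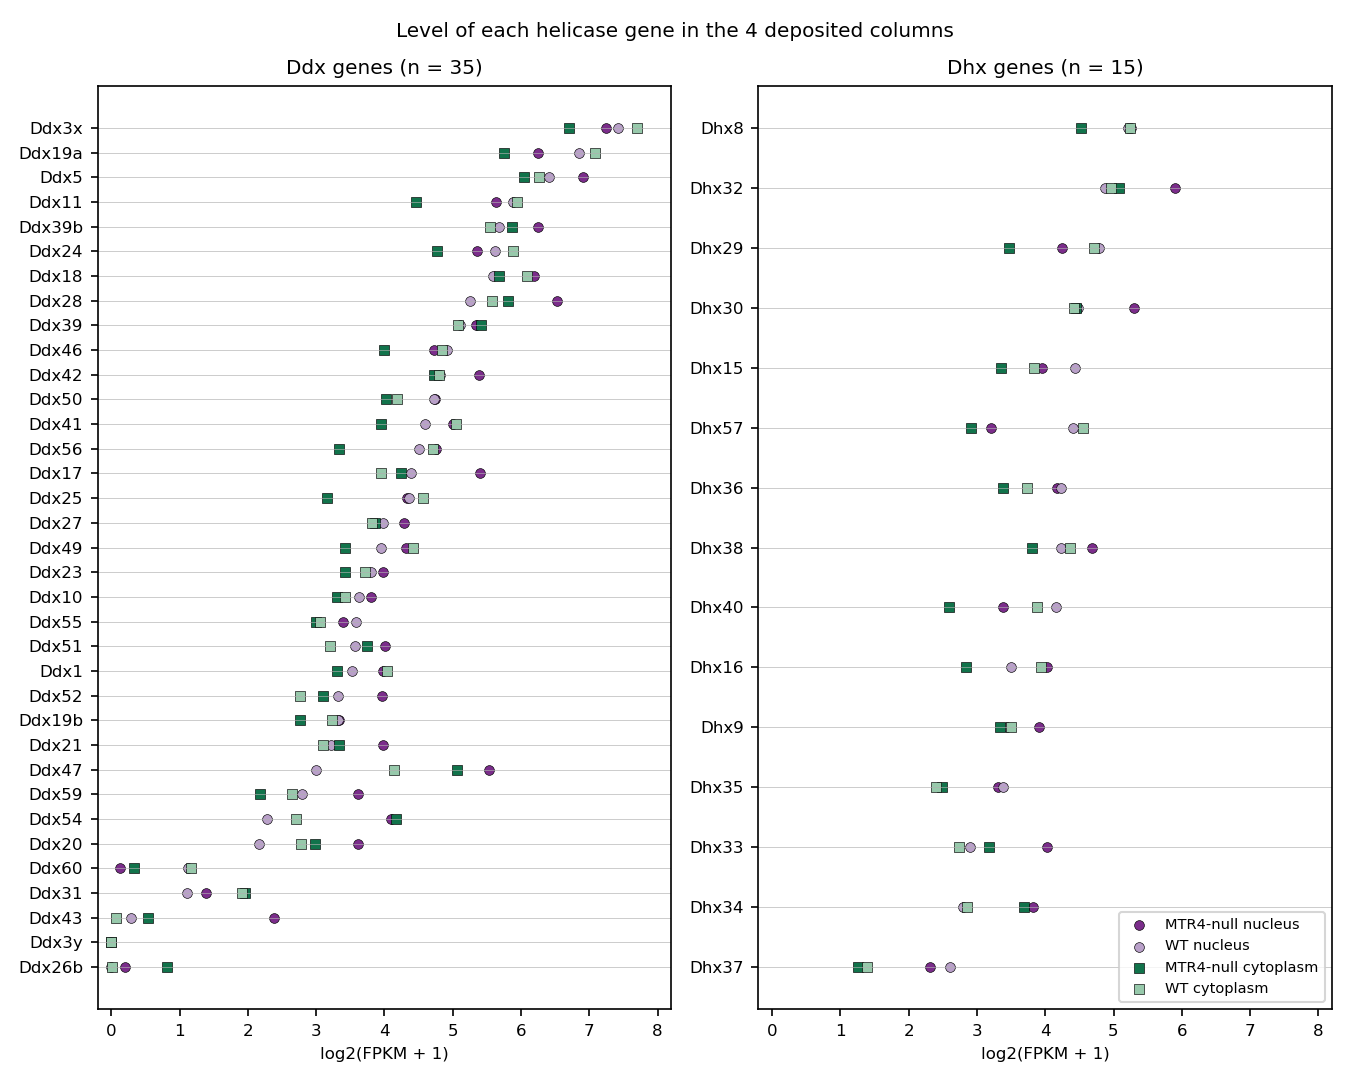
Level of each of the 50 genes as log2(FPKM + 1) on the horizontal axis, with Ddx genes on the left and Dhx genes on the right, ordered by level in WT nuclei. Each point is 1 deposited column, with no error available. Ddx3x lies highest in every column, and Ddx47, Ddx54 and Ddx43 show the widest spread between the nuclei of both genotypes.

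The first comparison asks how the helicase transcripts in the nucleus differed without MTR4. On the log2(FPKM + 1) scale, which understates differences of genes at low levels, 9 of the 48 members (18.8%) stood 2-fold or more above WT in MTR4-null nuclei, against 23.9% of the 14270 genes kept. Only Dhx57 (2.08% of members) stood as far below WT, against 12.3% of all genes kept. The members had a median difference of 0.34 and all genes one of 0.21. Among the 45 members at 5 FPKM or more in at least 1 column, 8 were higher and 1 lower by this measure, against 25.1% and 10.1% of the 10303 genes at that level. The share that was higher thus lay below the background, while the middle of the family lay slightly above it.

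Ddx47, whose yeast counterpart Rrp3 acts in early processing of the small-subunit ribosomal RNA, stood furthest apart. It had 45.2 FPKM in MTR4-null nuclei and 6.95 FPKM in WT nuclei, a log2 difference of 2.54, and 32.4 FPKM in MTR4-null cytoplasm and 16.6 FPKM in WT cytoplasm, a log2 difference of 0.92. In MTR4-null nuclei its level was thus 651% of that in WT. Ddx54, whose yeast counterpart Dbp10 serves the large subunit, had 16.1 FPKM in MTR4-null nuclei and 3.84 FPKM in WT nuclei, a log2 difference of 1.82. It was the only member at least 2-fold higher in the cytoplasm too, with 17.1 FPKM in MTR4-null cytoplasm and 5.55 FPKM in WT cytoplasm, a log2 difference of 1.47.

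Ddx20, also called Gemin3, is a subunit of the SMN complex that loads Sm proteins onto small nuclear RNAs. It stood at 11.3 FPKM in MTR4-null nuclei and 3.46 FPKM in WT nuclei, and at 6.92 FPKM in MTR4-null cytoplasm and 5.89 FPKM in WT cytoplasm. The log2 differences were 1.46 in the nucleus and 0.20 in the cytoplasm. Ddx28, a helicase of mitochondrial ribosome assembly and the product of a gene with 1 exon, stood at 91.7 FPKM in MTR4-null nuclei and 37.3 FPKM in WT nuclei (log2 difference 1.28), and at 55.4 FPKM in MTR4-null cytoplasm and 46.6 FPKM in WT cytoplasm (0.24). In MTR4-null nuclei it was the third highest member, after Ddx3x and Ddx5.

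Among the Dhx genes, Dhx33, known from human cells for ribosomal RNA synthesis, had 15.4 FPKM in MTR4-null nuclei and 6.43 FPKM in WT nuclei, a log2 difference of 1.14. Its cytoplasmic levels were 8.08 FPKM in MTR4-null and 5.65 FPKM in WT (0.45). Dhx32, a gene of little known function that gave no box match, had 59.0 FPKM in MTR4-null nuclei and 28.3 FPKM in WT nuclei (1.03), and 32.8 FPKM in MTR4-null cytoplasm and 30.1 FPKM in WT cytoplasm (0.12). The remaining members past 2-fold were close to the threshold or low. Dhx34, a factor of nonsense-mediated decay, had 13.2 FPKM in MTR4-null nuclei and 5.96 FPKM in WT nuclei (1.03), and Ddx17, the near relative of Ddx5, had 41.3 FPKM in MTR4-null nuclei and 19.9 FPKM in WT nuclei (1.02). Ddx43, known in the mouse for its part in male germ cells, had 4.22 FPKM in MTR4-null nuclei and 0.219 FPKM in WT nuclei (2.097), and 0.457 FPKM in MTR4-null cytoplasm and 0.0478 FPKM in WT cytoplasm (0.48).

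At the lower end, Dhx57 was the only member at least 2-fold lower in both compartments. This large DEAH gene, whose function is little known, had 8.24 FPKM in MTR4-null nuclei and 20.2 FPKM in WT nuclei (log2 difference -1.20), and 6.55 FPKM in MTR4-null cytoplasm and 22.5 FPKM in WT cytoplasm (-1.64). These levels were 40.8% and 29.2% of WT. Dhx40, likewise little known, had 9.38 FPKM in MTR4-null nuclei and 16.9 FPKM in WT nuclei (-0.79). Ddx60, an interferon-induced gene, had 0.0952 FPKM in MTR4-null nuclei and 1.18 FPKM in WT nuclei (-0.99), and 0.258 FPKM in MTR4-null cytoplasm and 1.24 FPKM in WT cytoplasm (-0.83). Smaller differences were those of Ddx19a, with 74.8 FPKM in MTR4-null nuclei and 114 FPKM in WT nuclei (-0.60), and of Dhx29, a factor of translation initiation on structured mRNA, with 17.96 FPKM in MTR4-null nuclei and 26.7 FPKM in WT nuclei (-0.55). Dhx15 (-0.48) and Dhx37 (-0.29) followed. Dhx37 had 3.97 FPKM in MTR4-null nuclei and 5.08 FPKM in WT nuclei. Dhx29 lies near Mtr4 on chromosome 13: the stretch around its box starts at position 112948332 and that of Mtr4 at 112913100. Whether this nearness bears on the level of Dhx29 in either compartment was not tested. Of these 7 named members 5 are Dhx genes. As 15 members were lower in MTR4-null nuclei and these were named for the size of their difference, the count does not describe all lower members.

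The Ddx and Dhx series were set side by side. In the nucleus as deposited, 25 of 33 Ddx genes and 8 of 15 Dhx genes had a higher level in MTR4-null than in WT, and the median log2 difference was 0.37 for Ddx genes and 0.06 for Dhx genes. At least 2-fold higher were 6 of 33 Ddx genes and 3 of 15 Dhx genes, both shares below the 23.9% of all genes kept, while the medians lay 0.31 apart. That gap ranged from 0.21 to 0.37 over the other processing settings tried. Scaling whole columns by a factor moves both medians nearly alike and the fold threshold moves neither, so these settings could hardly change the gap. Under the 4 other scalings of the columns the Ddx median stayed above 0, at 0.05 to 0.18, while the Dhx median lay below 0, at -0.16 to -0.13. The Dhx median is the value of 1 gene, Dhx8 at 0.06, whose neighbours are Dhx36 at -0.05 and Dhx38 at 0.45. Members are not replicates, and this gap has no error of its own. Divided by the last codon of the box instead of by symbol, the 31 genes with GAC or GAT had a median of 0.41 and the 16 with CAC or CAT one of -0.07.

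**Figure D2:**
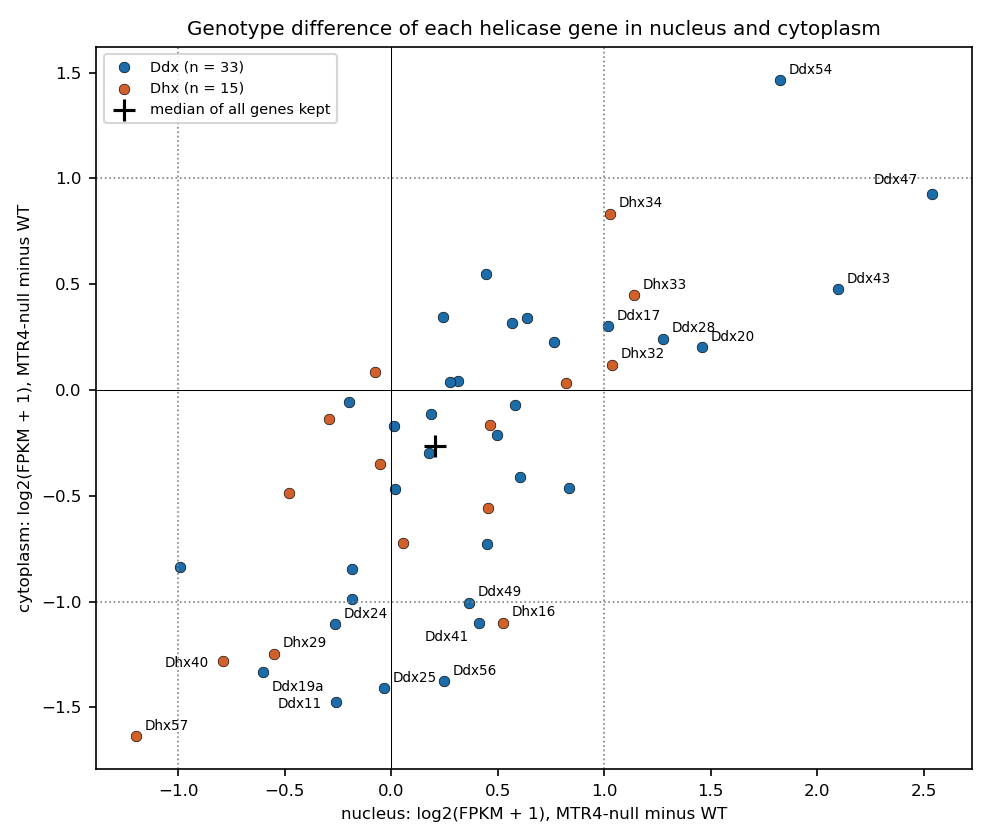
Genotype difference on log2(FPKM + 1), MTR4-null minus WT, in the nucleus (horizontal axis) and the cytoplasm (vertical axis) for the 48 members kept, Ddx in blue and Dhx in orange. Dotted lines mark 2-fold, names are given for members past it in either compartment, and the cross marks the median of all 14270 genes at 0.21 and -0.26. Ddx54 is alone past both upper lines and Dhx57 alone past both lower lines.

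In the cytoplasm, the second comparison, 11 of 48 members (22.9%) were at least 2-fold lower in MTR4-null, against 21.4% of all genes kept, and 1 member (2.08%), Ddx54, was at least 2-fold higher, against 15.0%. The member median was -0.19 and that of all genes -0.26. Among the 10303 genes at 5 FPKM or more in at least 1 column the median was -0.46, against -0.21 for the 45 members at that level. The share of members that was lower thus lay at the background.

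The sign of the cytoplasmic median depended on scaling. With the columns centred by the median log ratio it was 0.29, with differences centred on the median of all genes 0.07, with FPKM rescaled to genes other than small RNA genes 0.31, and with quantile normalization -0.06. The same scalings put the median of all genes between -0.12 and 0.11 in the cytoplasm and between -0.05 and 0.05 in the nucleus. Of the 30 members lower in MTR4-null cytoplasm, 16 kept that sign under all 4, and of the 33 higher in MTR4-null nuclei, 26 did. Of the 11 lower members only Dhx57 was at least 2-fold lower under all 4 of these scalings, and none of the 11 changed sign. Ddx54 was at least 2-fold higher under all 4. The nuclear differences of Ddx20, Ddx28, Ddx47 and Ddx54 upward and of Dhx57 downward also stayed past 2-fold under all 4.

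Ddx11 had 21.1 FPKM in MTR4-null cytoplasm and 60.3 FPKM in WT cytoplasm (log2 difference -1.47), and 48.6 FPKM in MTR4-null nuclei and 58.3 FPKM in WT nuclei (-0.26). Ddx25, also called GRTH, is known from mouse testis as a regulator of mRNA export and translation. It had 7.93 FPKM in MTR4-null cytoplasm and 22.7 FPKM in WT cytoplasm (-1.41), but 19.2 FPKM in MTR4-null nuclei and 19.6 FPKM in WT nuclei (-0.03). Ddx56, whose yeast counterpart Dbp9 serves the large ribosomal subunit, had 9.06 FPKM in MTR4-null cytoplasm and 25.1 FPKM in WT cytoplasm (-1.38), and 25.9 FPKM in MTR4-null nuclei and 21.7 FPKM in WT nuclei (0.25). As deposited, the MTR4-null cytoplasm was in each of these genes the column that stood apart from the other 3.

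Ddx19a had 52.9 FPKM in MTR4-null cytoplasm and 135 FPKM in WT cytoplasm (-1.33). Dhx40 had 5.05 FPKM in MTR4-null cytoplasm and 13.7 FPKM in WT cytoplasm (-1.28), and Dhx29 had 10.1 FPKM in MTR4-null cytoplasm and 25.2 FPKM in WT cytoplasm (-1.24). These genes were lower in MTR4-null nuclei too, though by less than 2-fold. Ddx24, a factor of large-subunit assembly, had 26.4 FPKM in MTR4-null cytoplasm and 57.9 FPKM in WT cytoplasm (-1.11). The last members past the threshold were Dhx16 (-1.10), Ddx41 (-1.10) and Ddx49 (-1.004), each of them higher in MTR4-null nuclei than in WT nuclei, by 0.53, 0.41 and 0.37.

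On the higher side of the cytoplasm, Ddx54 and Ddx47 were followed by Dhx34, which had 11.9 FPKM in MTR4-null cytoplasm and 6.24 FPKM in WT cytoplasm (0.83). Ddx51, whose yeast counterpart Dbp6 serves the large ribosomal subunit, had 12.5 FPKM in MTR4-null cytoplasm and 8.23 FPKM in WT cytoplasm (0.55). Ddx39, an export helicase also called Ddx39a, had 41.8 FPKM in MTR4-null cytoplasm and 32.6 FPKM in WT cytoplasm (0.35). Over the series, 7 of 33 Ddx genes (21.2%) and 4 of 15 Dhx genes (26.7%) were at least 2-fold lower, against 21.4% of all genes kept. The medians were -0.17 for Ddx genes and -0.35 for Dhx genes, a gap of 0.18 that ranged from 0.12 to 0.24 over the settings. Here too, scaling whole columns by a factor and the fold threshold could hardly change the gap. Under the 4 other scalings the Ddx median was above 0, at 0.03 to 0.39, and the Dhx median between -0.20 and 0.20. By the last codon of the box, the median was -0.11 for the 31 genes with GAC or GAT and -0.52 for the 16 with CAC or CAT.

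Across the family, 17 of 48 members were higher in both MTR4-null compartments, 14 were lower in both, 16 were higher in the nucleus and lower in the cytoplasm, and 1, Dhx35, was lower in the nucleus and higher in the cytoplasm. Of the 14270 genes kept, 4410 were higher in both, 4735 lower in both, 3795 higher in the nucleus only and 1100 in the cytoplasm only. Higher in the nucleus and lower in the cytoplasm were thus 33.3% of members and 26.6% of all genes kept. These are signs as deposited. Under all 4 other scalings, 26 of the 33 members higher in the nucleus and 16 of the 30 lower in the cytoplasm kept theirs. Dhx35 was at -0.0024 in the cytoplasm with quantile normalization. The nuclear and the cytoplasmic comparison share no column, but whether both fractions came from the same oocytes is not given.

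Grouped by role, the splicing helicases were followed in the order in which they act. Ddx46 (Prp5), which remodels the U2 particle for branch point recognition, had 25.4 FPKM in MTR4-null nuclei and 29.1 FPKM in WT nuclei (log2 difference -0.19), and 14.9 FPKM in MTR4-null cytoplasm and 27.6 FPKM in WT cytoplasm (-0.85). Ddx39b (UAP56), which acts at the same early stage, had 74.8 FPKM in MTR4-null nuclei and 50.2 FPKM in WT nuclei (0.57), and 57.5 FPKM in MTR4-null cytoplasm and 45.9 FPKM in WT cytoplasm (0.32). The early step thus held 1 gene that was lower and 1 that was higher without MTR4.

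Ddx23 (Prp28), which displaces U1 from the donor site, had 14.8 FPKM in MTR4-null nuclei and 13.0 FPKM in WT nuclei (0.18), and 9.73 FPKM in MTR4-null cytoplasm and 12.2 FPKM in WT cytoplasm (-0.30). Dhx16 (Prp2), which activates the spliceosome, had 15.3 FPKM in MTR4-null nuclei and 10.3 FPKM in WT nuclei (0.53), but 6.17 FPKM in MTR4-null cytoplasm and 14.4 FPKM in WT cytoplasm (-1.10). As deposited, Dhx16 had its highest and its lowest level in the MTR4-null columns.

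Dhx38 (Prp16), which remodels the spliceosome between the catalytic steps, had 24.6 FPKM in MTR4-null nuclei and 17.7 FPKM in WT nuclei (0.45), and 13.0 FPKM in MTR4-null cytoplasm and 19.6 FPKM in WT cytoplasm (-0.56). Dhx8 (Prp22), which releases the spliced mRNA, had 37.4 FPKM in MTR4-null nuclei and 35.9 FPKM in WT nuclei (0.06), and 21.9 FPKM in MTR4-null cytoplasm and 36.8 FPKM in WT cytoplasm (-0.72). Dhx15 (Prp43), which takes the spent complex apart, had 14.5 FPKM in MTR4-null nuclei and 20.6 FPKM in WT nuclei (-0.48), and 9.19 FPKM in MTR4-null cytoplasm and 13.3 FPKM in WT cytoplasm (-0.49). Of these 7 Ddx and Dhx genes of the cycle none was at least 2-fold apart in the nucleus. Of all genes kept, 23.9% were higher and 12.3% lower there. In the cytoplasm Dhx16 alone was at least 2-fold lower, against 21.4% of all genes kept, and none was higher, against 15.0%. Under the 4 other scalings Dhx16 came within 2-fold in the cytoplasm, at -0.91 to -0.57.

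With Ddx5, Ddx17, Ddx41, Ddx42 and Dhx35 added, 1 of 12 splicing helicases, Ddx17, stood 2-fold or more above WT in the nucleus, against 23.9% of all genes kept, and 0 stood below, against 12.3%. The median was 0.43. In the cytoplasm the counts were 0 above, against 15.0% of all genes kept, and 2 below (Dhx16 and Ddx41), against 21.4%, and the median -0.39, which turned to 0.14 with centring by the median log ratio and to 0.15 with rescaling. Within this role the 7 Ddx genes had a nuclear median of 0.50 and a cytoplasmic one of -0.21, against 0.06 and -0.56 for the 5 Dhx genes. Ddx42, a paralogue of Ddx46, had 41.0 FPKM in MTR4-null nuclei and 27.1 FPKM in WT nuclei (0.58). Ddx41, known for splicing and as a gene of inherited human leukaemia risk, had 31.3 FPKM in MTR4-null nuclei and 23.3 FPKM in WT nuclei, and 14.5 FPKM in MTR4-null cytoplasm and 32.3 FPKM in WT cytoplasm. Dhx35, found in the catalytic human spliceosome, had 8.91 FPKM in MTR4-null nuclei and 9.46 FPKM in WT nuclei (-0.08), and 4.61 FPKM in MTR4-null cytoplasm and 4.28 FPKM in WT cytoplasm (0.09).

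The 16 helicases of ribosome assembly were the widest group. In MTR4-null nuclei Ddx47, Ddx54 and Dhx33 stood 2-fold or more above WT, 18.8% of the group against 23.9% of all genes kept, and no member below, against 12.3%. The median was 0.34. In the cytoplasm Ddx54 was past the threshold upward, against 15.0% of all genes kept, and Ddx24, Ddx49 and Ddx56 downward, against 21.4%, with a median of -0.01, which was 0.21 to 0.48 under the 4 other scalings. Ddx18, whose yeast counterpart Has1 serves both subunits, had the highest nuclear level of the group without MTR4: 72.1 FPKM in MTR4-null nuclei and 47.1 FPKM in WT nuclei (0.60), with 50.1 FPKM in MTR4-null cytoplasm and 66.8 FPKM in WT cytoplasm (-0.41). Ddx52, whose yeast counterpart Rok1 serves the small subunit, had 14.5 FPKM in MTR4-null nuclei and 9.01 FPKM in WT nuclei (0.63), and Ddx27, whose yeast counterpart is Drs1, had 18.6 FPKM in MTR4-null nuclei and 14.7 FPKM in WT nuclei (0.31).

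As deposited, Ddx10, Ddx31, Ddx50, Ddx55 and Dhx37 were within 0.3 of equality in both compartments. This depended on scaling. With centring by the median log ratio, the cytoplasmic differences were 0.41 for Ddx10, 0.47 for Ddx31, 0.37 for Ddx50 and 0.45 for Ddx55. The nuclear difference of Dhx37 was then -0.46. Ddx10, whose yeast counterpart Dbp4 acts on the small subunit, had 13.0 FPKM in MTR4-null nuclei and 11.3 FPKM in WT nuclei (0.18), and 8.93 FPKM in MTR4-null cytoplasm and 9.75 FPKM in WT cytoplasm (-0.11). Ddx55, whose yeast counterpart is Spb4, had 9.48 FPKM in MTR4-null nuclei and 11.04 FPKM in WT nuclei (-0.20), and Ddx31, the counterpart of yeast Dbp7 and the lowest of the group in WT nuclei, had 1.61 FPKM in MTR4-null nuclei and 1.16 FPKM in WT nuclei (0.28). Dhx37, whose yeast counterpart Dhr1 frees U3 from the precursor, had 1.39 FPKM in MTR4-null cytoplasm and 1.63 FPKM in WT cytoplasm (-0.14). Further apart was Ddx21, a nucleolar helicase that also acts on transcription, with 14.8 FPKM in MTR4-null nuclei and 8.29 FPKM in WT nuclei (0.77). Its relative Ddx50 had 25.8 FPKM in MTR4-null nuclei and 25.6 FPKM in WT nuclei (0.01).

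Helicases of export and translation had a median of -0.03 over 7 genes in the nucleus, the lowest of the roles as deposited, and one of -0.99 in the cytoplasm. Both medians stayed below 0 under the 4 other scalings, at -0.37 to -0.22 and -0.73 to -0.39. In the cytoplasm 3 of 7 (Ddx19a, Ddx25 and Dhx29) were at least 2-fold lower, against 21.4% of all genes kept, while Ddx3x, with 104 FPKM in MTR4-null and 206 FPKM in WT, was just short of it at -0.99. All 3 came within 2-fold with the columns centred by the median log ratio. In the nucleus Dhx34 alone was at least 2-fold higher, against 23.9%. The 5 helicases of structured RNA and sensing had medians of 0.45 in the nucleus and -0.35 in the cytoplasm, the last between -0.15 and 0.20 under the 4 other scalings. Of them, Dhx9, which unwinds long duplexes and binds transcripts of inverted repeats, had 14.0 FPKM in MTR4-null nuclei and 9.86 FPKM in WT nuclei (0.46), and Dhx36, which resolves G-quadruplexes, had 17.1 FPKM in MTR4-null nuclei and 17.7 FPKM in WT nuclei (-0.05). Ddx1, part of the tRNA ligase complex, had 14.8 FPKM in MTR4-null nuclei and 10.5 FPKM in WT nuclei (0.45), but 8.93 FPKM in MTR4-null cytoplasm and 15.5 FPKM in WT cytoplasm (-0.73).

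Both helicases of the mitochondrial ribosome were higher in the nucleus. Beside Ddx28, Dhx30 had 38.6 FPKM in MTR4-null nuclei and 21.4 FPKM in WT nuclei (0.82), but 20.9 FPKM in MTR4-null cytoplasm and 20.4 FPKM in WT cytoplasm (0.03). The 6 genes of other or little known function went both ways, with 2 at least 2-fold higher (Ddx43 and Dhx32) and 1 lower (Dhx57) in the nucleus, and 3 lower (Ddx11, Dhx40 and Dhx57) in the cytoplasm. For all genes kept these shares were 23.9%, 12.3% and 21.4%. Ddx59, a gene of human orofaciodigital syndrome, had 11.3 FPKM in MTR4-null nuclei and 5.90 FPKM in WT nuclei (0.83), and 3.54 FPKM in MTR4-null cytoplasm and 5.26 FPKM in WT cytoplasm (-0.46).

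**Figure D3:**
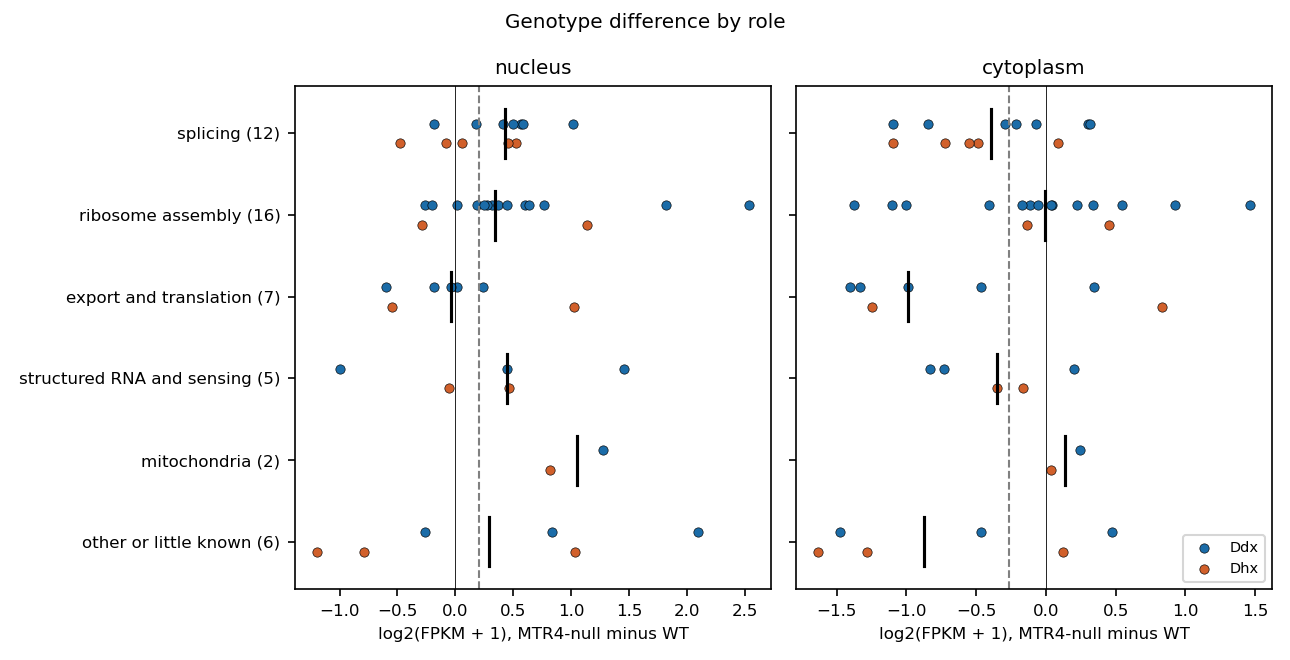
Genotype difference on log2(FPKM + 1), MTR4-null minus WT, of the 48 members kept by role, in the nucleus (left) and the cytoplasm (right), Ddx in blue above Dhx in orange. Black bars are role medians, the number of genes stands in brackets and the dashed line is the median of all genes kept. As deposited, export and translation lies lowest in both panels, at -0.03 and -0.99 (with quantile normalization the genes of other or little known function are lower in the cytoplasm, at -0.74 against -0.39), and ribosome assembly holds the 2 largest nuclear differences at 5 FPKM or more, Ddx47 and Ddx54.

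Near relatives within the family were set side by side. Ddx5 and Ddx17, whose coding sequences are identical at 72.2% of aligned bases, share no 50-base stretch. Ddx5 had 119 FPKM in MTR4-null nuclei and 83.8 FPKM in WT nuclei (0.50), and 65.2 FPKM in MTR4-null cytoplasm and 75.8 FPKM in WT cytoplasm (-0.21). Ddx17 had 17.97 FPKM in MTR4-null cytoplasm and 14.4 FPKM in WT cytoplasm (0.30), the opposite sign to Ddx5. Under the 4 other scalings Ddx5 too was above 0 in the cytoplasm, at 0.05 to 0.46. Ddx39 and Ddx39b, at 81.7% identity, were both higher in both MTR4-null compartments, Ddx39 with 39.7 FPKM in MTR4-null nuclei and 33.4 FPKM in WT nuclei (0.24). For Ddx21 and Ddx50, at 70.8% identity, the difference was larger in Ddx21 in the nucleus.

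The pair Ddx19a and Ddx19b is less certain, since their coding sequences are identical at 93.5% of aligned bases. Of the 50-base stretches of the Ddx19a transcript, 33.3% also occur in that of Ddx19b, and of those of Ddx19b 27.2% in Ddx19a, so the counting may have split fragments between them. Ddx19b had 9.05 FPKM in MTR4-null nuclei and 8.94 FPKM in WT nuclei (0.02), and 5.77 FPKM in MTR4-null cytoplasm and 8.36 FPKM in WT cytoplasm (-0.47). Ddx3x and Ddx3y, at 84.6% identity, share 0.04% of such stretches.

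Nucleus and cytoplasm were then compared within each genotype. In MTR4-null oocytes 9 of 48 members (18.8%) had nuclear levels 2-fold or more above the cytoplasmic ones, against 17.0% of all genes kept, and 0 had levels as far below, against 1.84%. The member median was 0.69 and that of all genes 0.52. Ddx59 (1.44), Ddx56 (1.42) and Dhx16 (1.19) had the largest ratios at 5 FPKM or more, while Ddx54 (-0.08) and Ddx39 (-0.07) were the only members at that level with less in the nucleus. Under the 4 other scalings none of these 9 was at least 2-fold higher in each, apart from Ddx43, which passed the filter through the MTR4-null nucleus alone and had to be higher there. Of the 44 members with more in the MTR4-null nucleus as deposited, 29 kept that sign under all 4.

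In WT oocytes 46 of 48 members were within 2-fold between the compartments. Dhx37 (2.08% of members) was at least 2-fold higher in the nucleus, against 12.4% of all genes kept, with 5.08 FPKM in WT nuclei and 1.63 FPKM in WT cytoplasm (1.21). Dhx35 came next with 9.46 FPKM in WT nuclei and 4.28 FPKM in WT cytoplasm (0.98), then Dhx15 with 20.6 FPKM in WT nuclei and 13.3 FPKM in WT cytoplasm (0.59). Ddx47 was at least 2-fold lower in the nucleus, against 4.71% of all genes kept, with 6.95 FPKM in WT nuclei and 16.6 FPKM in WT cytoplasm (-1.14), followed by Ddx20 (-0.63) and Ddx1 (-0.51). The member median was 0.02 and that of all genes -0.04. In MTR4-null oocytes the deposited levels of Ddx47 were 45.2 FPKM in nuclei and 32.4 FPKM in cytoplasm (0.47). This difference was -0.17 to -0.05 under the 4 other scalings, so its sign depended on scaling. The ratio of Ddx47 was larger in MTR4-null than in WT in each case, by 1.61 as deposited and by 0.85 to 1.04 under those scalings.

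The ratio of nucleus to cytoplasm was larger in MTR4-null than in WT for 42 of 48 members (87.5%), against 71.5% of all genes kept. At least 2-fold larger it was for 14 members (29.2%), against 27.0% of all genes kept, and at least 2-fold smaller for 0, against 10.7%. Of these, 12 are Ddx genes and 2, Dhx16 and Dhx38, Dhx genes. The largest shifts were those of Dhx16 (1.62), Ddx56 (1.62), Ddx43 (1.62), Ddx47 (1.61) and Ddx41 (1.51). The member median was 0.68 and that of all genes 0.57, with 0.71 for Ddx genes and 0.63 for Dhx genes. This median had the other sign, at -0.08, both after centring by the median log ratio and after rescaling to genes other than small RNA genes, and none of the 14 was at least 2-fold larger under all 4 scalings apart from Ddx43, which passed the filter through the MTR4-null nucleus alone. Of the 42 members with a larger ratio as deposited, 19 kept that sign under all 4. These ratios use all 4 columns, so they share the columns of the genotype comparisons and add no independent evidence.

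**Figure D4:**
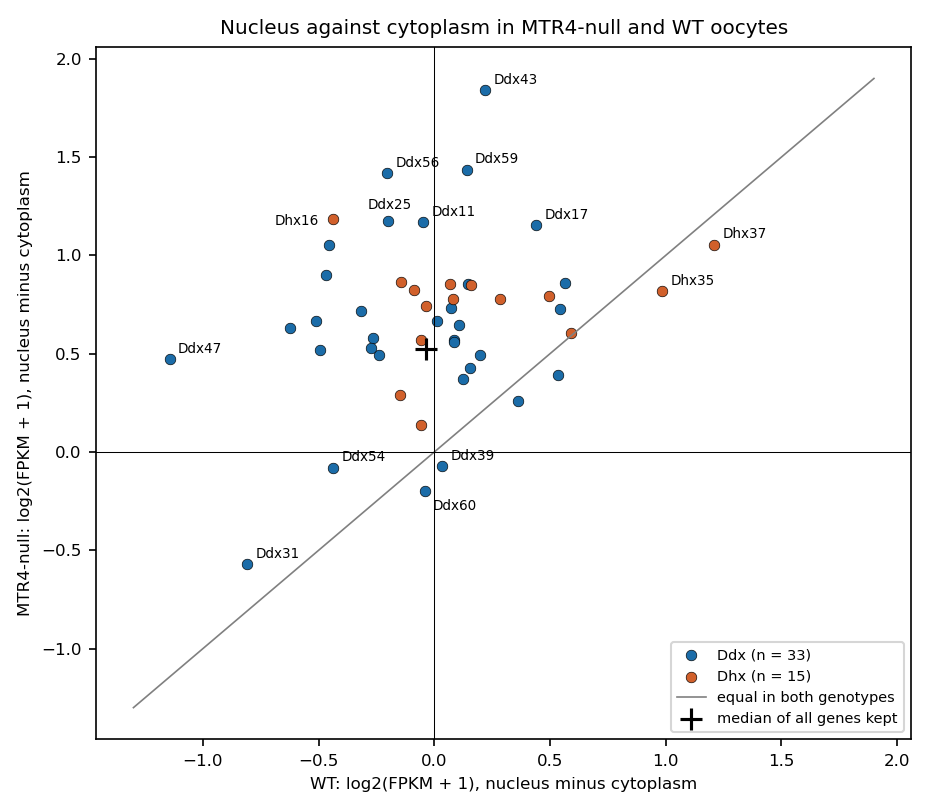
Nucleus minus cytoplasm on log2(FPKM + 1) in MTR4-null oocytes (vertical axis) and WT oocytes (horizontal axis) for the 48 members kept, Ddx in blue and Dhx in orange. The grey line marks equal ratios in both genotypes and the cross the median of all genes kept, 0.52 in MTR4-null and -0.04 in WT. Ddx47 lies furthest left, at 0.47 in MTR4-null and -1.14 in WT, and Dhx37 furthest right.

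Other measures that can move with these differences were recorded beside them. The GC content of the transcripts, known for all 48 members, had a Spearman correlation of 0.23 with the nuclear genotype difference and 0.13 with the cytoplasmic one, against 0.22 and 0.18 over the 13022 of all genes with a known value; these points share their libraries, and no p is given. GC content spanned 40.5% to 59.1% in Ddx genes and 39.96% to 59.6% in Dhx genes. For transcript length the Spearman correlation over the members was -0.26 in the nucleus and -0.08 in the cytoplasm, against -0.08 and -0.06 over all genes with a known value. The median length was 3128 bases in Ddx genes and 4325 bases in Dhx genes. Of 15 granulosa markers kept, 4 stood 2-fold or more above and 4 below WT in MTR4-null nuclei, and 0 and 2 in MTR4-null cytoplasm, with medians of 0.10 and -0.34. Of the 16 oocyte markers the counts were 2 above and 0 below in the nucleus and 0 above and 6 below in the cytoplasm, and the medians 0.22 and -0.71. For all genes kept the shares were 23.9% above and 12.3% below in the nucleus, and 15.0% above and 21.4% below in the cytoplasm. The part of base composition, of transcript length and of other cells in the helicase differences was not tested.

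Helicases other than the members, with the set-aside Ddx4 and Ddx6 among them, were given for comparison from a list of 25, of which 24 were measured. By the same threshold 5 stood above and 2 below WT in the nucleus (median 0.43), against 23.9% and 12.3% of all genes kept, and 2 above and 3 below in the cytoplasm (median -0.40), against 15.0% and 21.4%. The 2 below in the nucleus were Mtr4 itself (-2.14) and Hfm1 (-1.06), which passed the filter through WT nuclei alone and had to be lower there. Mtr4 was also 1 of the 3 below in the cytoplasm. Dqx1, 1 of the 2 above in the cytoplasm, passed the filter through the MTR4-null columns alone. Apart from Mtr4, Mov10, an RNA helicase of small RNA pathways, had 6.9997 FPKM in MTR4-null nuclei and 1.36 FPKM in WT nuclei (1.76). Skiv2l, the cytoplasmic relative of MTR4 in the SKI complex, had 32.1 FPKM in MTR4-null nuclei and 14.5 FPKM in WT nuclei (1.09), and 20.02 FPKM in MTR4-null cytoplasm and 7.16 FPKM in WT cytoplasm (1.36). Snrnp200 (Brr2), the Ski2-like helicase of the spliceosome, had 32.9 FPKM in MTR4-null nuclei and 36.0 FPKM in WT nuclei (-0.13), and 16.5 FPKM in MTR4-null cytoplasm and 44.4 FPKM in WT cytoplasm (-1.38).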

How the data were processed

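Per the labels' protocols, total RNA of separated oocyte nuclei and cytoplasms was taken up in TRIzol, depleted of rRNA, and read as 150 bp paired ends. The authors deposited FPKM, 1 column per group; how many of the 9 libraries stand behind each column is not stated. The submitters' processing notes name TopHat2 2.1.1, Cufflinks 2.2.1 and mm9 without settings. The row without a symbol, 50% of all values and the sum of the others, was left out. Read depth is unknown.

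Differences were computed on log2(FPKM + 1) with pandas 2.3.3 and numpy 2.4.6 (Python 3.11.15) for 14270 genes that reached 1 FPKM in some column, and 2-fold was the threshold for counts. No linear model could be fitted without library columns. Members by role are all accounted for; named with full values were the 6 largest genotype differences a direction and 3 largest compartment differences at 5 FPKM or more, the 5 highest in WT nuclei, near relatives, splicing helicases and 3 genes per other list, and Ddx17, Ddx43 and Ddx60 were among those added after their values were seen. Members and lists were chosen with earlier results of these data known. Alternatives covered pseudocount, filter, 4 scalings and fold. Boxes were found by pattern in translated GENCODE M21 coding sequences of GRCm38, another build than that of the FPKM. The pattern was motif I followed within 400 codons by the first box that came directly after mostly hydrophobic residues. Coding sequences of near relatives were aligned with Biopython 1.88. The counting steps were checked on simulated columns.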

Additional observations from a re-analysis of the deposited data

How the results depend on the processing

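No paired analysis was possible because the columns hold whole groups and carry no replicate numbers, so neither leaving out a library nor a replicate block was run. Counts below are members at least 2-fold higher or lower in MTR4-null (or in the nucleus), and medians are on the log2 scale. The filters, none or at least 5 FPKM, moved no count or median of the 5 comparisons beyond the limits of 1.5 times and 0.1.

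With the columns centred by the median log ratio, the nucleus had 5 higher and a median of 0.16, and the cytoplasm 4 higher, 1 lower and a median of 0.29, the other sign. The compartments in MTR4-null then had 1 higher, 1 lower and 0.0724, those in WT 2 higher and 0.16, and the change of ratio 1 higher and -0.0798, again the other sign. With differences centred on the median of all genes, the nucleus had 5 higher, 2 lower and 0.13, and the cytoplasm 3 higher, 6 lower and 0.0711, the other sign. The compartments had 1 higher, 1 lower and 0.17 in MTR4-null and 2 higher in WT, and the change of ratio 4 higher and 0.10. With FPKM rescaled to genes other than small RNA genes, the nucleus had 5 higher, 2 lower and 0.17, and the cytoplasm 4 higher, 1 lower and 0.31, the other sign. The compartments had 1 higher, 1 lower and 0.10 in MTR4-null and 2 higher, 0 lower and 0.18 in WT, and the change of ratio 1 higher and -0.0805, the other sign. With quantile normalization, the nucleus had 5 higher, 2 lower and 0.0398, the cytoplasm 2 higher, 5 lower and -0.0562, the compartments 1 higher and 0.0783 in MTR4-null and 0 higher and 2 lower in WT, and the change of ratio 2 higher and 0.042.

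At a fold of 1.5, the nucleus had 14 higher and 4 lower, the cytoplasm 3 higher, the compartments 29 higher in MTR4-null and 3 higher and 3 lower in WT, and the change of ratio 27 higher. A pseudocount of 0.1 gave 2 lower in the nucleus, 2 higher in the cytoplasm, and 3 higher and 2 lower between the WT compartments. A pseudocount of 5 gave 3 higher and 0 lower in the nucleus, 7 lower in the cytoplasm, 3 higher with a median of 0.52 between the MTR4-null compartments, 0 higher and 0 lower between the WT compartments, and 7 higher with a median of 0.54 for the change of ratio. Of 197 values of the 22 genotype calls over these settings, 138 stayed at least 2-fold apart, 59 came within 2-fold and 0 changed sign. The filters and the fold of 1.5 leave the value of a gene as it is, and a pseudocount of 0.1 enlarges it. Only the 4 scalings and the pseudocount of 5 could thus bring a call within 2-fold, and all 59 came from them. The 138 therefore include values that could not be lost. In every setting 5 calls stayed. The cause of these shifts was not tested. Depth is unknown, so how far it limits Ddx43, Ddx60 and other low members cannot be stated.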

Other observations

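Helicases are steered by partner proteins, which were read from lists chosen with earlier results of these data known. G-patch proteins switch on DEAH helicases such as Dhx15. Of 21 measured, 4 were at least 2-fold higher and 1 lower in MTR4-null nuclei, against 23.9% and 12.3% of all genes kept, with a median of 0.19. In the cytoplasm 5 were higher and 5 lower, against 15.0% and 21.4%, with a median of -0.36. Zgpat, a zinc finger and G-patch repressor, had 17.8 FPKM in MTR4-null nuclei and 6.11 FPKM in WT nuclei (log2 difference 1.41), and 12.4 FPKM in MTR4-null cytoplasm and 0.494 FPKM in WT cytoplasm (3.17). Aggf1 had 34.5 FPKM in MTR4-null nuclei and 8.09 FPKM in WT nuclei (1.97), and 32.5 FPKM in MTR4-null cytoplasm and 9.38 FPKM in WT cytoplasm (1.69). Gpkow, the G-patch partner of Dhx16, had 20.9 FPKM in MTR4-null nuclei and 6.74 FPKM in WT nuclei (1.503). In MTR4-null cytoplasm Gpkow was at 344% of its 4.65 FPKM in WT cytoplasm (1.59), whereas Dhx16 itself was lower there, at 6.17 FPKM in MTR4-null and 14.4 FPKM in WT. Rbm5, a splicing regulator, had 19.0 FPKM in MTR4-null cytoplasm and 4.37 FPKM in WT cytoplasm (1.896).

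Proteins with MIF4G domains and other partners work with DEAD helicases. Of 26 measured, 4 were at least 2-fold higher and 2 lower in MTR4-null nuclei, with a median of 0.13, against 23.9% and 12.3% of all genes kept. In MTR4-null cytoplasm 2 were higher and 7 lower, against 15.0% and 21.4%, with a median of -0.59. Cwc22, the splicing factor that brings the exon junction helicase to the spliceosome, had 32.5 FPKM in MTR4-null nuclei and 162 FPKM in WT nuclei (-2.28), and 29.3 FPKM in MTR4-null cytoplasm and 118 FPKM in WT cytoplasm (-1.97). Gemin4, the partner of Ddx20 in the SMN complex, had 5.98 FPKM in MTR4-null nuclei and 0.605 FPKM in WT nuclei (2.12), the direction of Ddx20 in the nucleus. Nup214, which docks Ddx19 at the nuclear pore, had 43.9 FPKM in MTR4-null cytoplasm and 151 FPKM in WT cytoplasm (-1.76), the direction of Ddx19a there. In the same list Gemin5 (-0.12) and Gemin8 (0.11) were near equality in the nucleus. In MTR4-null cytoplasm Gle1 was lower (-0.89) and Nupl2 higher (1.42) than in WT. The partner pairs named above were picked out after their values were seen, and no relation between partners was tested.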
